A study of Caenorhabditis elegans with 2 samples.

Results

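The P granule component genes examined here were *glh-1*, *glh-2*, *glh-3*, *glh-4*, *pgl-1*, *pgl-3*, *deps-1*, *meg-1*, *cgh-1* and *car-1*. They were taken by name, 10 of the 19985 protein-coding genes of Ensembl release 115 (WBcel235), and binding of the E2F factor EFL-1 was read at each of them by chromatin immunoprecipitation and sequencing (ChIP-seq). The series held 1 group of 2 biological replicates of whole young adult *Caenorhabditis elegans*, with males and females pooled and age given as unknown. The worms were strain YL445, in which an unc119(ed3)III background carries the insertion vrIs81. In that transgene the *pie-1* promoter, which is used to express proteins in germ cells, drives EFL-1 joined to GFP and FLAG, followed by the EFL-1 3′UTR and a functional unc-119 (+) copy. Both replicates carry the transgene and no group without it was analysed here. Which cells made the tagged protein was not measured here. Because whole animals were used, binding in few of these cells and weak binding in many of them cannot be told apart.

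P granules are condensates of RNA and protein that sit at the nuclear envelope of worm germ cells and are inherited by the germline founder cells of the embryo. PGL proteins form their scaffold, GLH proteins are DEAD-box RNA helicases related to Vasa, and MEG proteins act on the granules of the early embryo. CGH-1 and CAR-1 also occur in other cytoplasmic granules, where they hold maternal mRNA in a repressed state. E2F factors bind promoters through a short core sequence and are best known for control of cell cycle genes. EFL-1 is one of the worm E2F proteins and has roles in oogenesis and the early embryo.

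Of the 10 P granule genes, 8 had a region of the authors' optimal list in the gene body or up to 2000 bp upstream, against 16.4% of all protein-coding genes. The optimal list keeps the 2498 regions that passed the authors' threshold for reproducibility. Its regions equal the 2498 highest of the pooled list of both replicates, and 2440 of them were overlapped by a region in each replicate. Regions were ranked by the authors' signal value, whose scale is not stated, with 1 the highest. Signal levels differ between the lists at like ranks, so signal values were not compared between replicates, only ranks. *glh-2* stood far above the others at rank 14, with its summit on its own 5′ end. The other members with a region ran from rank 234 at *pgl-3* to rank 1974 at *glh-1*, and *glh-3* and *glh-4* had none. Since there is no comparison group, the counts and ranks are descriptions and no test was made on them. The 10 genes, and the other gene lists given below, were chosen with earlier results of these data known.

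**Figure D1:**
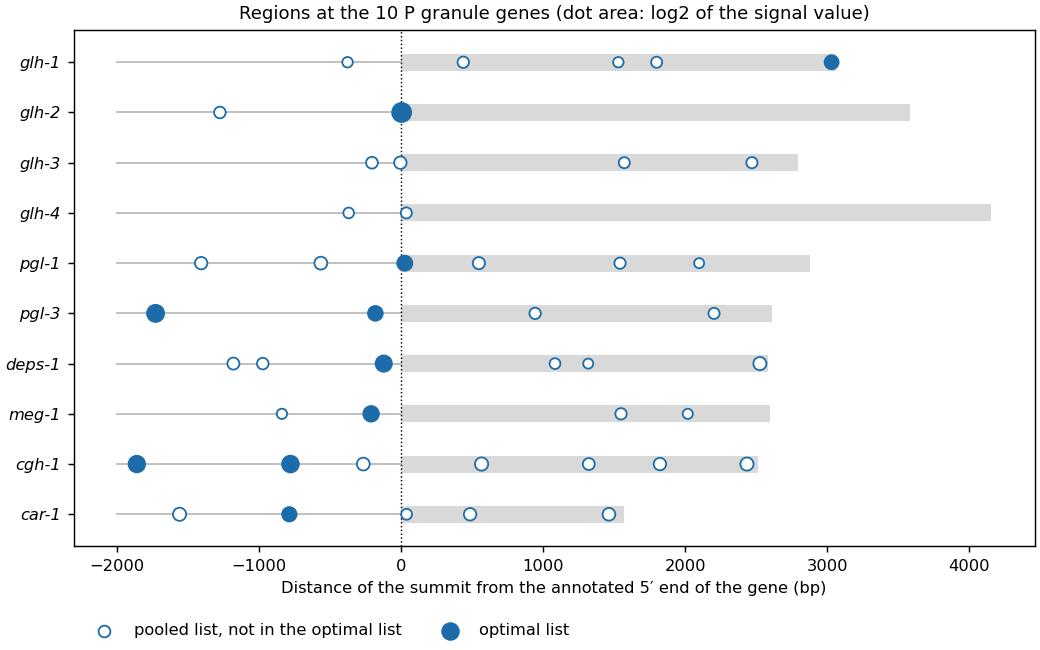
Summits of the pooled list at the 10 P granule genes, by distance in bp from the annotated 5′ end of the gene. Grey bars are gene bodies, grey lines the 2000 bp upstream, filled dots regions of the optimal list and open dots weaker regions of the pooled list, with dot area following log2 of the signal value. Optimal summits lie within 250 bp of the 5′ end at *glh-2*, *pgl-1*, *deps-1*, *meg-1* and the weaker region of *pgl-3*. They lie farther upstream at *cgh-1*, *car-1* and the stronger region of *pgl-3* (-1730 bp), and at the 3′ end at *glh-1*.

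The E2F core was searched on both strands as TTCCCGC or TTCGCGC or TTGCCGC or TTGGCGC. Of the 10 optimal regions at P granule genes, 3 held it no farther than 50 bp from the summit, against 30.7% of all optimal regions. The 3 were the highest ranked of the 10, namely those of *glh-2*, of *pgl-3* next to *hil-4*, and of *cgh-1* at -780 bp. All 3 stood in the upper 50% of the optimal list, where they were 3 of 7 regions of the members, against 40% of all regions there. Along the whole list the share was 49.9% at ranks 1 to 625, 30.1% at ranks 626 to 1249, 25.3% at ranks 1250 to 1874 and 17.6% at ranks 1875 to 2498. In *glh-2* the core was centred 12 bp before the summit and 9 bp upstream of the 5′ end. The 7 regions without a core near the summit had none anywhere in the region.

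The sequences below are from regions with and without an exact match to the core. Near matches were not searched. They are given 5′ to 3′ on the strand of the P granule gene, from the RefSeq copy of WBcel235, and capitals mark the E2F core in either direction. The first is at chrV:4754221-4754249 (plus strand), the second at chrIII:7498627-7498655 (minus strand), the third at chrX:13929832-13929860 (minus strand) and the fourth at chrIV:6977279-6977307 (minus strand). The last pair are centred on the summit.
*pgl-3*, region at -1730 bp: tTTCGCGCcatttcgcattcgGCGCCAAa
*cgh-1*, region at -780 bp: cgccattttgtTTCGCGCgttggctgagt
*meg-1*, region at -212 bp: ttgtattgttttgtctgcgcgccgccacg
*pgl-1*, region at 25 bp: agatctacgggtctcgaaacgaacaactc
The *pgl-3* region held 2 cores, TTCGCGC on the plus strand and TTGGCGC on the minus strand, centred 24 and 4 bp before the summit. At least 2 core matches of any kind lay within 50 bp of 5.32% of all optimal summits, on either strand, at any spacing and with overlapping matches counted. The *cgh-1* region held TTCGCGC on the strand of *cgh-1*, centred 29 bp before the summit. In the *meg-1* and *pgl-1* regions no core was found in the region, and the nearest lay 3735 and 2186 bp from the summit.

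A core at the gene start did not go together with a region in each case. In the 250 bp before and 50 bp after the annotated 5′ end, 2 of the 10 genes had a core, *glh-2* and *glh-4*, against 9.22% of all protein-coding genes. By strongest pooled region, *glh-2* stood highest of the members and *glh-4* lowest. In replicate 2 *glh-3* (rank 9282) stood below *glh-4* (rank 8020). The whole windows of 7 members held at least 1 core, against 66.9% of all protein-coding genes. Those of *glh-1*, *glh-3* and *meg-1* held none. TTCGAA or TTTGAA, which resemble the CHR element, a second site through which DREAM complexes contact promoters, lay within 50 bp of 3 of the 10 summits (*glh-2*, *deps-1* and the weaker region of *pgl-3*), against 38.8% of all optimal summits.

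The 4 Vasa-related helicase genes all lie on chromosome I. By strongest pooled region they ranged from the highest to the lowest of the 10 genes. *glh-2* (WBGene00001599) held the highest region of that chromosome, out of 504, at 6513727 to 6514107 (ce11). Its pooled signal value was 1069, with 251 in replicate 1 (rank 19) and 826 in replicate 2 (rank 10). The summit lay 3 bp inside the gene, in the 5′ UTR, and the summits of the replicates were 10 bp apart. The same region lies 101 bp upstream of *C55B7.11*, a gene on the other strand that RefSeq describes as protein OSCP1, and the 5′ ends of both genes are separated by 97 bp. By rank, its neighbours were the regions nearest to *T21B10.3* (signal 1075) and to *mcm-2* (signal 1020), which encodes a subunit of the replicative helicase.

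*glh-1* (WBGene00001598), the best studied of the Vasa-related genes, had its optimal region at the opposite end of the gene. The region, at 6857341 to 6857676, had a pooled signal of 44.3 and rank 1974. Its signal was 12.7 in replicate 1 (rank 2222) and 31.3 in replicate 2 (rank 2055). The pooled summit lay in the 3′ UTR, 3031 bp from the 5′ end of a gene of 3059 bp. In replicate 2 the summit was at 3061 bp and so fell just beyond the annotated gene. Around the 5′ end of *glh-1* the pooled list held regions at -378 bp (signal 8.40, rank 22317) and at 437 bp (signal 12.2, rank 10969), far below the lowest optimal signal of 34.9. *sacy-1*, which encodes another DEAD-box helicase, ends 337 bp upstream of *glh-1* on the same strand.

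*glh-3* (WBGene00001600) and *glh-4* (WBGene00001601) had only regions outside the optimal list, in a pooled list that holds peaks together with background. At *glh-3* the strongest pooled region had its summit at -6 bp, a signal of 20.0 and rank 4662. Replicate 1 placed a region at -13 bp at rank 2365, which is within its 2498 highest regions. In replicate 2 the strongest region was at -196 bp and rank 9282, and these summits lay 183 bp apart. At *glh-4* the strongest pooled region lay at 36 bp with a signal of 10.5 and rank 14844. No region of replicate 1 overlapped that pooled region. There replicate 1 had its strongest region at -367 bp (rank 2940), and replicate 2 had its own at 37 bp (rank 8020). Neither gene had a region among the 2498 highest of both replicates.

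The scaffold genes *pgl-1* and *pgl-3* both had an optimal region near their 5′ ends. At *pgl-1* (WBGene00003992, chromosome IV) the region at 6977214 to 6977297 had a pooled signal of 81.7 and rank 1100. It had 32.0 in replicate 1 (rank 801) and 48.6 in replicate 2 (rank 1360). The summit lay 25 bp inside the longest transcript, in its first coding exon, and 44 and 150 bp upstream of the starts of the other transcripts. It also lay 215 bp upstream of *him-3*, which runs the other way and encodes a protein of the meiotic chromosome axis with a HORMA domain. The 2 genes are 189 bp apart.

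At *pgl-3* (WBGene00003994, chromosome V) there were 2 optimal regions. The weaker one, at 4755629 to 4755964, had its summit 182 bp upstream of *pgl-3* in the intergenic DNA after *hil-4*. Its pooled signal was 66.4 (rank 1340), with 27.5 in replicate 1 (rank 933) and 39.6 in replicate 2 (rank 1644). The replicates put its summit 131 bp apart, the widest gap among the 10 optimal regions of the members. The stronger one, at 4754116 to 4754368, lay 1730 bp upstream of *pgl-3* and 64 bp upstream of *hil-4*, which encodes a linker histone. This region had a signal of 284 (rank 234), with 74.5 in replicate 1 (rank 251) and 215 in replicate 2 (rank 223). The summits of the replicates there were 3 bp apart.

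*deps-1* (WBGene00022034, chromosome I), whose product is needed for PGL-1 to gather in P granules, had a region at 506222 to 506459 with a pooled signal of 165 and rank 515. Replicate 1 gave it 67.2 (rank 299) and replicate 2 gave it 98.9 (rank 662). The summit lay 123 bp upstream of the longer transcript and 313 bp upstream of the shorter one. It was also 100 bp upstream of *Y65B4BL.4*, which lies on the other strand and which RefSeq describes as a mannosyltransferase. A weaker pooled region lay in the 3′ UTR of *deps-1* (signal 27.0, rank 3287) and was overlapped by a region at rank 9932 in replicate 1 and at rank 5248 in replicate 2.

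*meg-1* (WBGene00010492), whose product is a largely disordered protein of embryonic P granules, was the member on chromosome X, where the optimal list held 98 regions. Its region at 13929805 to 13929930 ranked 16 among those 98 and 825 in the whole list, with a pooled signal of 109. The signal was 20.1 in replicate 1 (rank 1324) and 88.1 in replicate 2 (rank 747). The summit was 212 bp upstream of *meg-1* and the replicates put it 5 bp apart. No other protein-coding gene had that summit in its window. *meg-2*, which follows *meg-1* on the same strand 906 bp further on, had no optimal region, and its strongest pooled region ranked 5264.

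The mRNA storage genes *cgh-1* and *car-1* had their optimal regions 780 bp or more upstream. At *cgh-1* (WBGene00000479, chromosome III), which encodes the worm DDX6 helicase, there were 2. The first, at 7498480 to 7498761, had its summit 780 bp upstream of *cgh-1*, between it and *C07H6.9*, a signal of 226 and rank 334. It was 859 bp downstream of the 5′ end of *C07H6.9* as a gene and 726 bp downstream of that of a shorter transcript of it. The summit lay beyond the 3′ end of *C07H6.9*, whose window therefore does not hold it. The genes that share this region are *sap-140*, 1126 bp downstream of the summit on the other strand, and the snoRNA gene *C07H6.10*, with its 5′ end 1958 bp away. Replicate 1 gave 65.7 (rank 309) and replicate 2 gave 155 (rank 369). The second, at 7499569 to 7499777, lay 1862 bp upstream of *cgh-1*, 44 bp upstream of *sap-140*, which encodes a protein associated with the splicing machinery, and 223 bp upstream of *C07H6.9*. Its signal was 196 (rank 411), with 41.3 in replicate 1 (rank 586) and 156 in replicate 2 (rank 364). Close to the 5′ end of *cgh-1* itself, at -267 bp, the pooled list held a region outside the optimal list with a signal of 23.6 and rank 3801, found in replicate 1 at rank 6827 and in replicate 2 at rank 3841.

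*car-1* (WBGene00012484, chromosome I), which encodes a protein related to LSM14, had a region at 12903514 to 12903849 with a pooled signal of 54.3 and rank 1667. Replicate 1 gave it 12.1 (rank 2387) and replicate 2 gave it 45.0 (rank 1467). The summit lay 788 bp upstream of *car-1* and 233 bp upstream of *coa-5*, a gene on the other strand for an assembly factor of cytochrome c oxidase. At the 5′ end of *car-1* the nearest pooled region, at 38 bp, had a signal of 9.70 and rank 17285. Replicate 2 had regions there at -28 bp (rank 17746) and -243 bp (rank 5751). The nearest region of replicate 1 was at 468 bp (rank 28908).

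Taking the regions one by one, 7 of the 10 lay upstream of the member and 3 in its body. Another annotated gene had the same summit in its window in 8 cases, and in 7 of these it was protein-coding. Over the whole optimal list, 49.5% of the 2289 regions assigned to a protein-coding gene were assigned to 2 or more. Measured to the 5′ ends of genes, the nearest protein-coding one was that of the P granule gene in 6 regions (*glh-1*, *glh-2*, *pgl-1*, the weaker region of *pgl-3*, *meg-1* and *cgh-1* at -780 bp) and that of another gene in 4. Measured to the 5′ end of any transcript, the split was 5 and 5, with *cgh-1* at -780 bp nearer to *C07H6.9*. The count of members depended on the window. With summits from 1000 bp upstream to 200 bp downstream of any annotated 5′ end, 7 of the 10 genes had an optimal region, against 12.6% of all protein-coding genes. With 500 bp upstream it was 5 of the 10 (*glh-2*, *pgl-1*, *pgl-3*, *deps-1* and *meg-1*), against 10.4%. In the gene body alone it was 3 of the 10, against 2.97%, and when each summit went to the nearest 5′ end of any transcript it was 5 of the 10, against 11.4%. With the nearest 5′ end of a gene it was 6 of the 10, with *cgh-1* added, against 11.4%. This last count was added after the data were seen. Among the upper 50% of the optimal list, 6 of the 10 genes had a region, against 9.4%. Many worm mRNAs are trans-spliced, so an annotated 5′ end can lie downstream of the site where transcription starts.

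Each of the 10 optimal regions was overlapped by one of the 2498 highest regions of replicate 1 and of replicate 2, against 72.9% of all optimal regions. Over the whole list the share was 100% at ranks 1 to 625, 95.8% at ranks 626 to 1249, 72.3% at ranks 1250 to 1874 and 23.6% at ranks 1875 to 2498, where the *glh-1* region lies. When at least 50% of each region had to be covered by the other, 6 of the 10 regions were shared in this way, against 57.3% of all optimal regions. Replicate 2 ranked 6 of the 10 regions higher than replicate 1 did, against 54.9% of the optimal regions found in both lists, and replicate 1 ranked 4 higher (*pgl-1*, the weaker region of *pgl-3*, *deps-1* and *cgh-1* at -780 bp). The widest relative spread was at *deps-1*, at rank 299 in replicate 1 and rank 662 in replicate 2. Summits of the replicates were a median of 20.5 bp apart at the members' regions, against 23.0 bp over all 2440 optimal regions found in both lists. The optimal list was built from these same replicates, so their overlap with it is raised by selection.

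**Figure D2:**
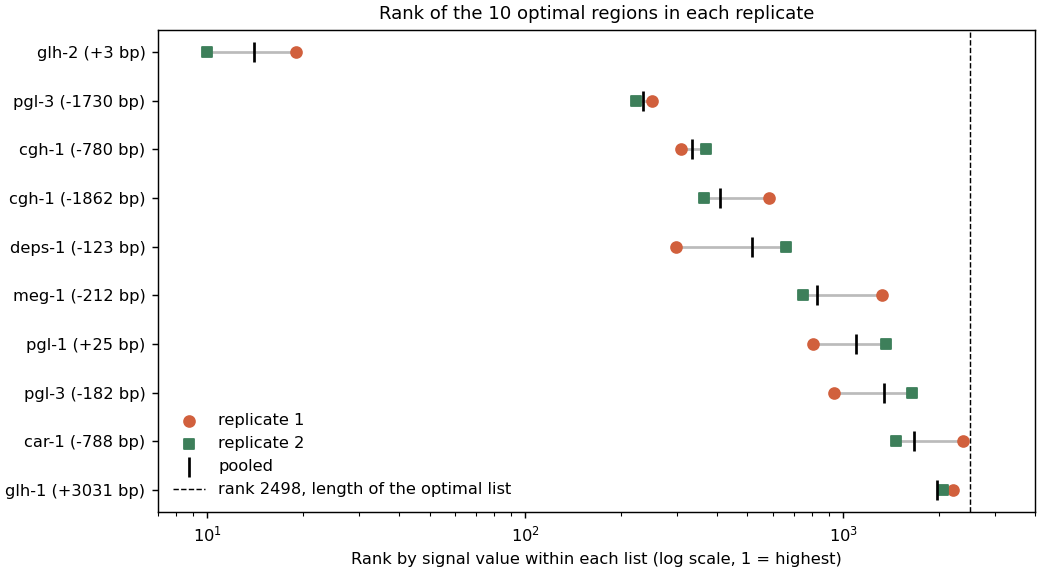
Rank by signal value of the 10 optimal regions at P granule genes in replicate 1 (circles), replicate 2 (squares) and the pooled list (bars), on a log axis where 1 is the highest. Row labels give the distance of the pooled summit from the gene's 5′ end, and all points lie left of the dashed line at rank 2498.

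How the members stood among all genes was read from the strongest pooled region in each gene's window. For *glh-2* only 0.110% of protein-coding genes had a region of that rank or higher, for *pgl-3* 1.91% and for *cgh-1* 2.75%. For *deps-1*, *meg-1* and *pgl-1* the shares were 4.18%, 6.46% and 8.34%. A region at or above that of *car-1* was found in 2394 of the 19985 genes, and for *glh-1* the share was 13.7%. *glh-3* stood at 24.3% and *glh-4* at 48.1%, near the middle of all genes. These positions count each gene that shares a region, so that *pgl-3* owes its place to the region beside *hil-4*. Its region at -182 bp alone had rank 1340.

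**Figure D3:**
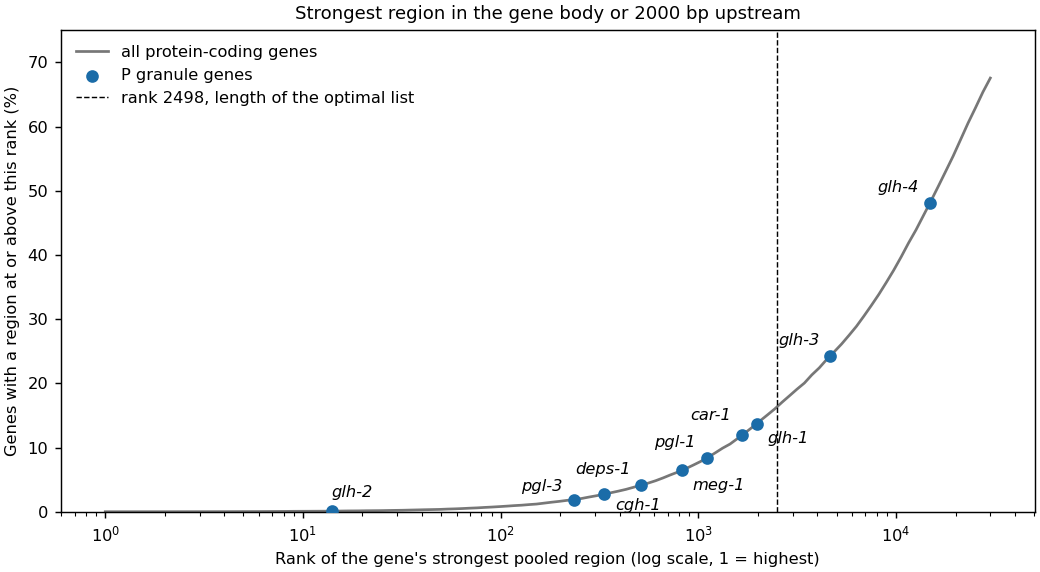
Share of all 19985 protein-coding genes (y axis, %) with a pooled region at or above a given rank (x axis, log scale) in the gene body or 2000 bp upstream, shown as a grey line. Dots are the 10 P granule genes, with *glh-2* at rank 14 on the left, and *glh-3* and *glh-4* to the right of the dashed line at rank 2498.

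The windows of the P granule genes held 2 to 7 summits of the pooled list of 30000 regions, optimal ones included, with a median of 4.5, against a median of 1 over all protein-coding genes. Without the optimal regions they held 1 to 5 summits, or 7.24 per 10 kb of window, against 2.93 per 10 kb for all protein-coding genes. At least 1 summit of the pooled list was found in every member's window, against 67.6% of all protein-coding genes. Of the 35 pooled regions outside the optimal list, 32 were overlapped by a region of replicate 2 and 15 by one of replicate 1. Over all pooled regions outside the optimal list these shares were 63.2% and 52.4%. *cgh-1* had 5 such regions between ranks 2999 and 7002, 4 of them in the gene body, and *car-1* had 4 between ranks 3097 and 17285.

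The other germ granule genes were examined in 3 lists. Of 7 genes of granule assembly, 4 had an optimal region in the same window. These were *mip-1* (signal 220, rank 347) and *mip-2* (57.2), which encode LOTUS domain partners of GLH-1, *pgl-2* (44.1), and *meg-3* (35.5). The *meg-3* region, on chromosome X, was overlapped by a region at rank 26998 in replicate 1 and at rank 2197 in replicate 2. *pgl-2* had no overlapping region in replicate 1, and *meg-2* and *meg-4* had no optimal region. Of 12 helicase and small RNA genes, 9 had one. The highest were *csr-1* (339), which encodes an Argonaute, *znfx-1* (338), which encodes a helicase of the neighbouring Z granules, *wago-1* (182), also an Argonaute gene, and *ego-1* (180), which encodes an RNA-dependent RNA polymerase, while *laf-1* and *drh-3* had none. Of 9 mRNA storage and decapping genes, 4 had one. These were *ifet-1* (203), for a translational repressor found with CGH-1 and CAR-1, the Y-box protein genes *cey-2* (124) and *cey-3* (67.8), and *patr-1* (87.8), and the decapping genes *dcap-1* and *dcap-2* had none. In all, 17 of these 28 genes (60.7%) had an optimal region, against 16.4% of all protein-coding genes. Of the 17 strongest regions, 5 (29.4%) held an E2F core near the summit by the same measure, against 30.7% of all optimal regions. Not all lay nearest to the listed gene. The nearest transcript 5′ end was that of *rps-1* for *ifet-1*, *dna-2* for *patr-1* and *rmh-1* for *cey-3*. In the helicase and small RNA list it was that of *mrpl-17* for *vbh-1*, *D2030.7* for *prg-1* and *C06A5.3* for *simr-1*.

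**Figure D4:**
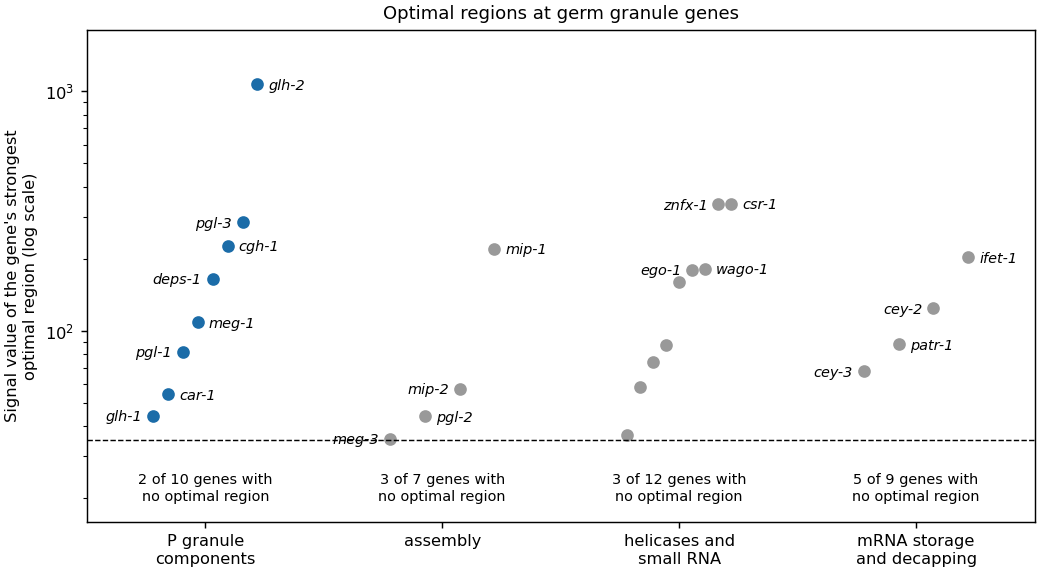
Signal value (log scale) of the strongest optimal region in the gene body or 2000 bp upstream for the P granule components and for 3 other lists of germ granule genes, with 1 dot per gene. The dashed line is the lowest optimal signal, 34.9, and the text under each column gives the genes with no optimal region, 2 of 10 for the P granule components.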

How the data were processed

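EFL-1 ChIP-seq peak lists in build ce11 were used from 2 biological replicates of 1 group. Per the deposited description of the files, the authors wrote 30000 regions, peaks together with background, for either replicate and for both pooled, relative to a control, and an optimal list thresholded on the irreproducible discovery rate. Column 7 of the deposited lists is the authors' signal value per region, and column 9 a −log10 q-value, which was not used for any result. The sources used here give no peak caller, aligner or threshold, and sequencing depth is unknown. Lists in ce10 were not used.

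Positions count from 1. Genes came from Ensembl release 115 (WBcel235) and sequence from the RefSeq copy of WBcel235, inside whose chromosome lengths all regions lay. A region was assigned to every gene whose body or 2000 bp upstream held its summit. Overlap meant at least 1 bp. Assignment and motif search (Python 3.11.15, pandas 2.3.3) were tested on simulated data. Named genes were the 10 members, genes sharing or nearest to their regions, up to 4 genes with and 2 without a region from each other list, and the genes next in rank to *glh-2*. *sacy-1*, *vbh-1*, *prg-1*, *simr-1* and the genes nearest to regions of the other lists were chosen after their values were seen. The members and lists were chosen with earlier results of these data known, and no test was made. Alternatives changed the window, the list, the replicate, the overlap and the motif.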

Additional observations from a re-analysis of the deposited data

How the results depend on the processing

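The main count of 8 P granule genes with an optimal region became 5 with a window of 500 bp upstream to 200 bp downstream of any 5′ end, 3 in the gene body only and 5 when each summit was given to the gene with the nearest transcript 5′ end (6 by the gene's own 5′ end, an alternative chosen after seeing the data). The corresponding counts over all protein-coding genes were 3269 in the main window, and 2072, 594 and 2284. The promoter window of 1000 bp gave 7 members, without *glh-1*. With the upper 50% of the optimal list there were 6 members and 1878 protein-coding genes. With the pooled list of peaks and background there were 10 members and 13501 protein-coding genes. Using 1 replicate alone gave 7 to 9 members and 3197 to 3237 protein-coding genes. *glh-1* dropped out without replicate 1, since the summit of its region in replicate 2 (rank 2055) fell just beyond the annotated gene. *glh-3* came in without replicate 2. A reciprocal overlap of 50% left 6 of the 10 regions shared with the highest regions of both replicates, against 57.3% of all optimal regions. The count of 3 regions with an E2F core was also 3 within 100 bp, with one more T and in the upper 50% of the list, but the share it stands against, 30.7% of all optimal regions, became 36.1% within 100 bp, 17.1% with one more T and 40% in the upper 50%. No paired analysis was possible because there is 1 group. Depth is unknown, so a region missing from a list does not show absence of binding.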
